A study of Rattus norvegicus with 6 samples.

Results

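Small nucleolar RNA (snoRNA) genes were examined in the brain of 6 male F344 rats aged 18 months. The genes are those whose symbol begins with Snora, Snord or Scarna, taken place by place, and were chosen by a measured value: FPKM (fragments divided by gene length and by library size) above 0 in at least 3 of the 6 libraries. Of 32643 named gene places, 238 carry such a symbol and 89, under 58 symbols, met the rule. The class follows the symbol: 44 are H/ACA RNAs (Snora), 38 are C/D RNAs (Snord) and 7 are small Cajal body RNAs (Scarna). The study compared 3 untreated rats with 3 that received cranial osteopathic manipulation, in which the skull is handled manually. Treatment ran for 7 days under 1.5 to 3% isoflurane, and untreated rats were anaesthetised too. Each rat gave 1 library, from a coronal slab 1 mm thick labelled prefrontal cortex. Untreated libraries are numbered 1 to 3 and manipulated libraries 4 to 6.

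SnoRNAs are short, stable RNAs of the nucleolus that base-pair with other RNAs and guide their chemical modification. C/D RNAs carry the proteins fibrillarin, Nop56, Nop58 and Snu13 and direct 2′-O-methylation. H/ACA RNAs carry dyskerin, Nop10, Nhp2 and Gar1 and direct pseudouridylation. Cajal body RNAs do the same work on spliceosomal RNAs. In mammals nearly all are cut from introns of other genes, many of them genes for ribosomal proteins, so a host mRNA and its snoRNA begin as a single transcript and are then kept or degraded separately. Neurons add SNORD115 and SNORD116, tandem arrays of C/D RNAs from the imprinted region that is lost in Prader-Willi syndrome.

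Of the 238 places, 90 were at 0 FPKM in all 6 libraries and 59 were above 0 in 1 or 2. The 14 places above 0 in exactly 3 libraries had values between 0.771 and 1917 FPKM where above 0, with a median of 8.06. The 26 places above 0 in exactly 2 had values between 0.631 and 141, with a median of 5.74. Of the 89 genes, 54 were above 0 in all 6 libraries. In each library between 71 and 83 of the 89 were above 0. The 7 Cajal body RNAs were above 0 in every library.

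The 89 genes did not all have values of their own. The assembly gave 58 of them a separate row in each library (37 H/ACA, 20 C/D and Scarna6), and 55 of those had a mean of at least 1 FPKM and were tested. The other 31 sat in a row that names several genes in 1 or more libraries, so their fragments could not be told apart from those of the neighbour. SNORD3, SNORD118 and SNORD13, the C/D RNAs known as U3, U8 and U13, had no place under those symbols that met the rule.

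Relative depth, from what 1 fragment was worth in 11 snoRNA genes with a single place, lay between 0.946 and 1.04 in untreated and between 0.908 and 1.16 in manipulated libraries. Over all 11081 tested genes the median log2 fold change, manipulated minus untreated, was -0.36. The slabs differed in marker genes. Summed FPKM of 7 markers of thalamic and hypothalamic neurons was 95.0 to 139 in untreated and 9.43 to 10.8 in manipulated libraries, and 6 of the 7 passed the test as lower. One of these, Pmch, was at 0 in manipulated 6. Summed FPKM of 7 striatal markers was 52.2 to 79.5 in untreated and 86.7 to 224 in manipulated libraries, with none past the adjusted p (limma) and 6 higher at an unadjusted p under 0.05. The 5 cortical projection neuron markers, all present, summed to 90.7 to 137 and to 65.6 to 103. The 5 choroid plexus markers summed to 458 to 466 and to 238, 1235 and 1000.2, with the defining marker Kcnj13 at 0 in all libraries but manipulated 5 and 6. Astrocyte markers summed to 149 to 244 and to 90.7 to 156, and blood markers to 369 to 442 and to 239 to 333. No marker of these 3 lists passed the adjusted p, with 2 choroid plexus markers higher and 2 astrocyte markers and Hbb lower at an unadjusted p under 0.05. The part of these differences in the snoRNA results was not tested. In bulk tissue, fewer cells of a type and less RNA per cell cannot be told apart.

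Levels of FPKM could not be ranked between snoRNAs of different length. The deposited intervals imply a number of fragments behind each value, and among genes with a single place 79 of 82 numbers under 10 fell within 0.05 of a whole number. In rows of 61 to 80 bases a single fragment was worth a median of 22.8 FPKM. In rows of 121 to 140 bases it was worth 2.55 FPKM, in rows of 201 to 250 bases 0.505, and in rows of 301 to 450 bases 0.123. Scarna2, a Cajal body RNA of 416 bases that guides modification of U2, thus stood 14th of the 89 by mean FPKM (425) and first by implied fragments (mean 3917). Its implied number ran from 1758 to 5694 in an order that did not follow its FPKM, so these numbers are approximate where an interval was widened. SNORD115 on chromosome 1 from 56808450 stood 2nd by FPKM (28420) and 8th by fragments (1066). Tests below are therefore of the same gene between libraries, and a level set beside that of another gene is given with its implied fragments. For families with many copies and for joined rows the implied numbers were often fractions of a fragment.

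**Figure D1:**
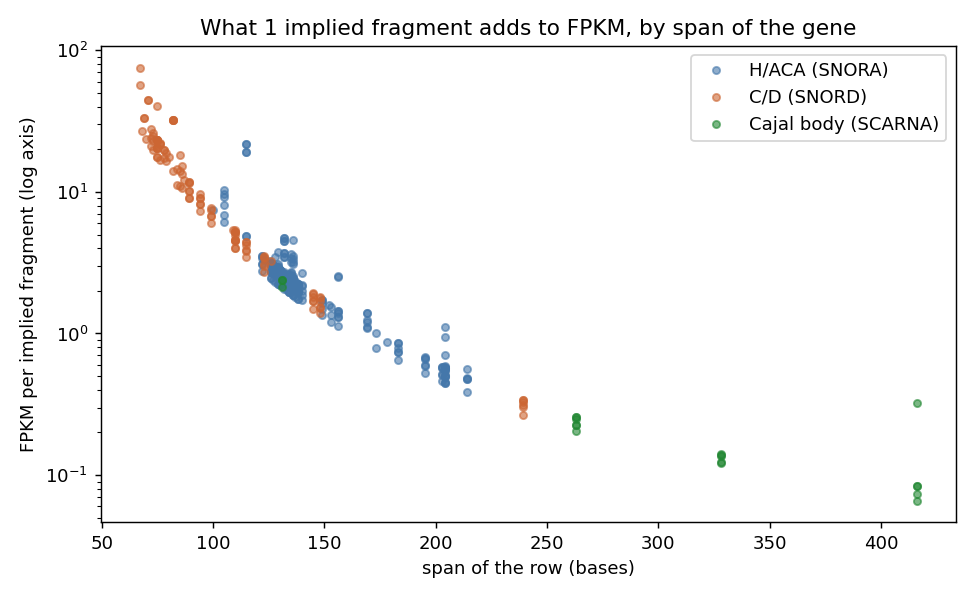
FPKM worth of 1 implied fragment (log axis) against the span of the row in bases, for each snoRNA row above 0 that names a single gene in a library, leaving out SNORD115 and SNORD116, coloured by class. The value falls from a median of 22.8 FPKM at 61 to 80 bases to 0.123 at 301 to 450 bases.

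Most tested snoRNA genes had higher FPKM in the manipulated rats, while most other genes had lower FPKM. Of the 55 tested, 46 lay above 0 and 9 below, with a median log2 fold change of 0.80 against -0.36 over all tested genes. Of the 55, 47 lay above the median of all genes. Many of the 55 are copies under a shared symbol that may share reads, so the counts here are not of independent genes. The H/ACA median was 0.57 over 34 genes, the C/D median was 0.99 over 20, and Scarna6 was at 0.14. Only 1 of the 55 passed the test (limma, adjusted p under 0.05), SNORA63, where 0.289% of all tested genes passed in either direction. At an unadjusted p under 0.05 there were 15 higher and 1 lower, against 1.7% higher and 13.1% lower of all genes. In 13 genes every manipulated library lay above every untreated library, a pattern seen in 1.4% of all tested genes. In 1 gene every manipulated library lay below, against 23% of all tested genes. Of these 14 genes, 2 were at 0 throughout a group, and the rule for choosing genes then left them no way not to differ. Without those 2, a choice made after seeing the data, the median over 53 genes was 0.80. Of the 53, 12 lay apart as higher, against 1.33% of all genes in that setting. None passed the adjusted p (limma), where 0.139% of all genes did, with 14 higher and 0 lower at an unadjusted p under 0.05. In simulated data of this size 11.7% of changes of 1 on the log2 scale passed. Those changes were placed in genes drawn from all tested genes, so the rate is not that of snoRNA genes. The median SD of log2 values in tested snoRNA genes was 0.76 in untreated and 0.42 in manipulated libraries. In genes of 300 bases or more it was 0.28 and 0.30.

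The counts moved with the processing. With weights per library 11 of 55 passed the adjusted p, 10 higher and 1 lower, where 5.55% of all genes did. The higher ones included Snora68, Snora7a, Snord8, and SNORA73 on chromosomes 4 and 5. Among genes above 0 in all 6 libraries 7 of 33 passed, 5 higher and 2 lower, where 4.41% did. That fit replaced each gene's own spread with a common one (its prior degrees of freedom were infinite), and 3 of its 7 calls, SNORD116 from 194848328, SNORD115 from 116697095 and SNORA70 on chromosome 15, rest on a single library that stands apart. With libraries scaled to a common median over all genes, the median of all tested genes moved from -0.36 to 0.0040, the snoRNA median was 1.14, and 25 snoRNA genes lay apart as higher, against 10.7% of all genes. With libraries scaled over genes under 300 bases, a set that included snoRNA genes, the snoRNA median was 0.45, with 40 above 0 and 15 below. In that setting 7 lay apart as higher, against 0.668% of all genes. The snoRNA genes thus helped to set this scale.

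**Figure D2:**
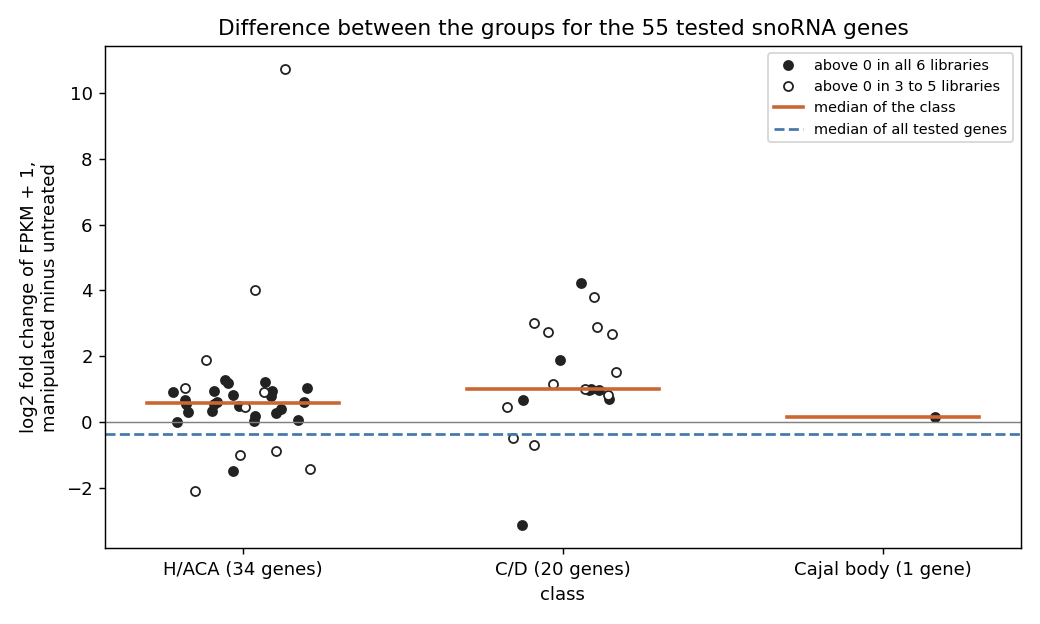
Log2 fold change (FPKM + 1, manipulated minus untreated) of the 55 tested snoRNA genes by class, with filled points for genes above 0 in all 6 libraries and open points for those above 0 in 3 to 5. Orange bars are class medians (0.57, 0.99 and 0.14) and the dashed line is the median of all 11081 tested genes (-0.36), below all 3 class medians.

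Among the 33 tested genes above 0 in all 6 libraries, 30 lay above 0, with a median of 0.65. The untreated libraries were not alike. Untreated 2 exceeded both other untreated libraries in 15 of 31 such genes (SNORD115 and SNORD116 left out) and reached the lowest manipulated library in 12 of them. The median ratio of the manipulated mean to the mean of untreated 1 and 3 was 1.78, and to untreated 2 it was 1.39. Without untreated 2, 22 genes lay apart as higher, against 2.09% of all genes, and 3 passed the adjusted p, against 0.514%. Leaving out manipulated 5 gave 20 apart as higher, against 2.11% of all genes, and leaving out manipulated 6 gave 22, against 4.76%, and fewer libraries part more easily by construction. The median SD of log2 values was 0.52 in untreated and 0.30 in manipulated libraries over those 33 genes, against 1.08 and 0.77 over other genes under 300 bases and 0.28 and 0.30 over genes of 300 bases or more.

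SNORA73, known as U17 or E1, is an H/ACA RNA that acts in cleavage of the ribosomal RNA precursor rather than as a modification guide. The copy on chromosome 4 (54935359 to 54935562, inside Grm8) had 382, 888 and 427 FPKM in untreated 1, 2 and 3 and 1009, 1005 and 954 in manipulated 4, 5 and 6. The manipulated values lay close together, while untreated 2 stood far above the other untreated libraries and just below the manipulated ones. The log2 fold change was 0.91 (SE 0.37, adjusted p = 0.334, limma). The copy on chromosome 5 (150530145 to 150530348) followed the same pattern, with 456, 1021 and 492 FPKM in untreated and 1170, 1239 and 1134 in manipulated libraries (log2 fold change 0.95, SE 0.36, adjusted p = 0.334).

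On chromosome 8 (128807666 to 128807868), inside the ribosomal protein gene Rpsa, SNORA73 had 451, 581 and 521 FPKM against 866, 855 and 639. Its groups did not overlap either, at a log2 fold change of 0.60 (SE 0.29). The copies on chromosome 14 inside H2az2 (263, 644 and 291 against 673, 668 and 581) and on chromosome 3 inside Pdia3 (67.9, 140 and 83.4 against 129, 142 and 132) overlapped through untreated 2. Without that library their log2 fold changes were 1.21, up from 0.80, and 0.83, up from 0.53, and without untreated 1 the second was 0.31. A neighbouring copy on chromosome 5 from 150529715 had 113, 305 and 84.1 FPKM against 347, 0 and 430, and the 0 in manipulated 5 turned its fitted log2 fold change to -1.44 although its manipulated mean was higher. The remaining 3 copies that met the rule had at most 2.40 FPKM, and a pair of them held identical values. The copies may share reads, so they are not independent measurements.

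Snora68, a guide for the large ribosomal subunit RNA, had 254, 590 and 252 FPKM in untreated and 865, 723 and 877 in manipulated libraries. These rest on 88.9 to 226 and on 243 to 389 implied fragments. The log2 fold change was 1.28 (SE 0.39, adjusted p = 0.334), with untreated 2 between the groups. Snora7a, inside Rpl32, had 26.4, 24.3 and 15.0 FPKM against 66.8, 47.3 and 42.1 (log2 fold change 1.22, SE 0.33, adjusted p = 0.299). Here untreated 2 lay with the other untreated libraries. Snora64, inside Rps2, had 8.75, 4.39 and 7.22 FPKM against 17.5, 10.02 and 13.7, on 2 to 7 fragments a library.

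**Figure D3:**
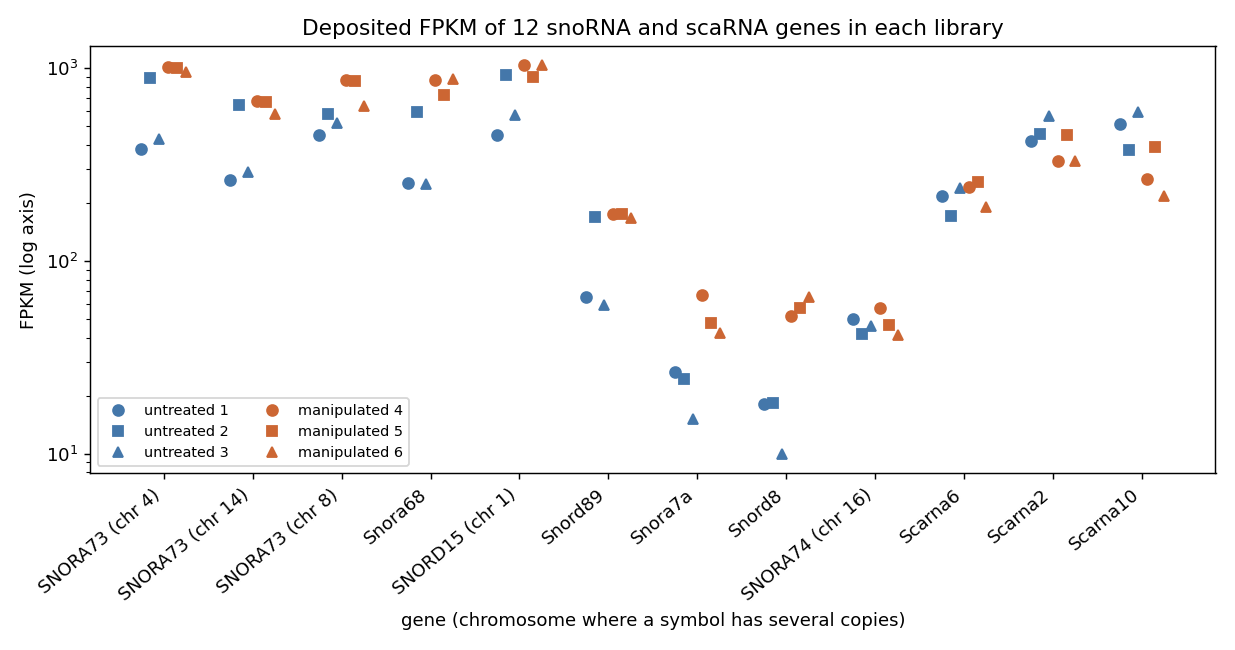
Deposited FPKM (log axis) of 12 snoRNA and Cajal body RNA genes, with 1 point for each library, blue for untreated and orange for manipulated. In SNORA73 on chromosomes 4 and 14, Snora68, SNORD15 and Snord89 untreated 2 sits above untreated 1 and 3, and the highest Scarna2 and Scarna10 values are those of untreated 3.

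SNORA63 was the only snoRNA gene past the adjusted p. This H/ACA RNA lies on chromosome 11 (81375575 to 81375703) inside Eif4a2, a translation initiation helicase. It met the rule through the manipulated libraries alone, so the rule itself fixed the difference and its test supports nothing. It was listed at 0 in all 3 untreated libraries and at 1917, 1396 and 1896 FPKM in manipulated libraries, on 477 to 611 implied fragments. The fitted log2 fold change was 10.75 (SE 0.27, adjusted p = 8.54e-07, limma). That size is set by the pseudocount and is no bound. A row of Eif4a2 spanning these bases had 95.0, 63.9 and 112 FPKM in untreated and 53.1, 64.4 and 33.7 in manipulated libraries. That FPKM is for the whole gene, so it does not show fragments on these bases in the libraries with the 0.

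Zeros under a covering row recurred. In all, 15 snoRNA genes reached at least 10 implied fragments in some library and were at 0 in another, and for 13 of them a row of another name covered the place in every library with the 0. The row of a containing gene can cover a place in libraries without the 0 too, as Eif4a2 did for SNORA63. The 13 therefore do not tie the 0 to the covering row. Snora21, inside Rpl23, was at 0 in untreated 1 and 3 and at 52.0 FPKM in untreated 2, with 68.7, 73.6 and 42.7 in manipulated libraries. Snora17 showed the same split, with 0, 443 and 0 FPKM against 563, 618 and 412. Zeros lay in manipulated libraries too. SNORD14 on chromosome 8 from 44992058, inside the chaperone gene Hspa8, had 87.3, 0 and 0 FPKM against 346, 0 and 709. Snord83b, inside Rpl3, had 57.6, 157 and 54.3 FPKM against 0, 330 and 539. Whether the 0 stands for a missing RNA or for fragments given to the covering row was not tested.

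SNORA70 had copies in many genes, with log2 fold changes on both sides of 0. The copy on chromosome 5 from 113926518, inside Mysm1, had 10.4, 18.7 and 15.95 FPKM against 54.5, 23.7 and 31.6 (log2 fold change 1.19, SE 0.37, adjusted p = 0.334). The copy on chromosome 7 had 7.20, 14.4 and 9.89 against 16.5, 18.5 and 20.8. The copy on chromosome 20, inside Slc25a16, had 2.13, 2.14 and 7.02 against 0 in all manipulated libraries. Those untreated values stand for 1, 1 and 3 fragments, and the gene met the rule through the untreated libraries alone, so the rule itself fixed this difference. Its adjusted p (limma) was 0.142, and it ranged from 0.0101 to 0.166 over the other settings, passing with a pseudocount of 0.01, scaling over short genes, a robust prior and library weights. Without untreated 3 it was 0.0297, and without any other single library it did not pass. A copy on chromosome 15 had 702 FPKM in untreated 3 and 3.90 to 10.2 in the other 5 libraries.

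SNORA62, inside Rpsa, had 8.93, 0 and 18.01 FPKM at the copy on chromosome 8 from 128808841 against 20.4, 20.5 and 20.03. Its groups did not overlap (log2 fold change 1.89, SE 0.91, adjusted p = 0.334), and without untreated 2 the value was 0.63. The copy from 128807094 had 14.5, 22.2 and 43.0 against 76.5, 26.0 and 28.3, with overlapping groups (log2 fold change 0.65, SE 0.51). SNORA74, known as U19, had 3 places among the 89 genes. Its strong place had a mean of 1954 FPKM on 1347 implied fragments, beside 919 FPKM on 1391 fragments for SNORA73 on chromosome 5. On chromosome 18 from 28355319, in a row shared with AC135285.4, it had 1908, 1465 and 2386 FPKM against 2267, 1876 and 1822, with overlapping groups. The row's log2 fold change was 0.07 (SE 0.28) when joined rows were tested. A further copy on chromosome 16 had 49.7, 41.7 and 45.7 against 56.8, 46.3 and 41.1 (log2 fold change 0.06, SE 0.28). The third, on chromosome 18 from 28353093 in a row shared with Mir1949, had 4.24, 15.8 and 0 against 53.4, 20.9 and 10.2, on a mean of 1.73 implied fragments. Its groups overlapped, and its row had a log2 fold change of 2.42 (SE 0.96, adjusted p = 0.333, limma) when joined rows were tested. The strong places thus lay near 0 and the weakest above it, with none past the test.

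Among C/D RNAs outside the imprinted arrays, Snord8 came closest to the threshold. This guide for the spliceosomal U6 RNA lies on chromosome 15 (28624976 to 28625085) inside Chd8. It had 18.1, 18.2 and 9.97 FPKM in untreated and 51.8, 57.1 and 64.6 in manipulated libraries, a ratio of means of 3.75. The values rest on 2 to 4 fragments against 9.59 to 16. Its log2 fold change was 1.88 (SE 0.31, adjusted p = 0.074, limma). The adjusted p ranged from 1.42e-05 to 0.133 over the alternatives other than leaving out a library, and from 0.1004 to 0.251 when a library was left out. It passed under 5 of them: the pseudocount of 0.01, the filter at 5 FPKM, the robust prior, library weights and the limit to genes above 0 in all 6 libraries.

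Snord67, inside Ckap5, had 9.06, 27.3 and 0 FPKM against 36.3, 41.5 and 52.5 (log2 fold change 2.74, SE 1.01, adjusted p = 0.334). Without untreated 3 the value was 1.38. Snord66, inside the initiation factor gene Eif4g1, had 20.3, 20.4 and 0 against 46.4, 46.5 and 53.3 (log2 fold change 2.69, SE 1.04, adjusted p = 0.334), and without untreated 3 the value was 1.22. At 75 bases, those Snord66 values stand for at most 3 fragments. SNORD15, a large subunit guide inside Rps3, had its strong copy on chromosome 1 from 164436586 at 448, 920 and 571 FPKM against 1035, 905 and 1034. Its weaker copy from 164440292 had 42.7, 79.6 and 55.4 against 110, 94.3 and 76.6. Both had a log2 fold change of 0.68 (SE 0.33), and untreated 2 reached the manipulated range in each. Snord89 had 65.3, 170 and 59.1 against 176, 176 and 168. Snord17 had 19.0, 27.6 and 44.6 against 129, 32.6 and 43.0, so that only manipulated 4 lay above every untreated library.

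A cluster of C/D RNAs on chromosome 1 between 224921278 and 224924681 holds SNORD22, SNORD25, SNORD28 and SNORD29 among the 89 genes, beside SNORD27, SNORD30 and SNORD31. Mammals make these from introns of a non-coding host. Its rows were joined in different combinations in each library. Summed over the cluster the rows gave 12.1, 6.57 and 10.2 FPKM in untreated and 141, 71.5 and 104 in manipulated libraries. When joined rows were kept, this was the second snoRNA result past the adjusted p (log2 fold change 3.31, SE 0.35, adjusted p = 0.00786, limma), where 0.284% of 12308 features passed. The rows above 0 were 3171 to 3404 bases long in untreated and 78 to 2321 bases in manipulated libraries, and a shorter row gives more FPKM for each fragment. The untreated rows implied 18.0, 0.143 and 0.276 fragments, and the SNORD22 rows of manipulated libraries 23.1, 16.01 and 7.29. The values were not measured over the same bases, and untreated 1 and manipulated 4 rested on similar fragment numbers.

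The longest Cajal body RNAs were not higher in manipulated rats beyond the spread between libraries. Scarna6, of 263 bases, had 217, 170 and 238 FPKM in untreated and 242, 257 and 191 in manipulated libraries, on 755 to 1002 implied fragments (log2 fold change 0.14, SE 0.30, adjusted p = 0.744). Scarna2, in a row shared with the cadherin gene Celsr2 in untreated 2, had 419, 458 and 568 against 328, 448 and 331. Scarna10, which carries both kinds of box and shared a row with Ncapd2 in manipulated 6, had 515, 378 and 595 against 266, 391 and 217. With joined rows kept, the log2 fold changes were -0.36 (SE 0.29) for Scarna2 and -0.78 (SE 0.34) for Scarna10, and neither passed the test. Scarna3a, of 140 bases and in a row shared with Mir1843b, had 78.3, 86.1 and 43.1 against 162, 126 and 104, so its groups did not overlap. Scarna3 and Scarna3b shared a single row, with 15.5, 11.5 and 14.9 against 22.1, 6.58 and 10.3. The difference between classes was not tested. With short genes used for scaling, the Scarna6 value turned to -0.21.

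The 5 highest mean FPKM of the 89 genes were those of SNORD115 and SNORD116 places, which stood between 2nd and 12th by implied fragments. The narrowest rows of these places had 75 to 93 bases, but others were far longer, with a row of 202458 bases in untreated 1. SNORD115 is known for pairing with the serotonin receptor mRNA Htr2c, and SNORD116 is tied to the Prader-Willi phenotype. Rows with either name lay in 4 blocks of chromosome 1, at 56808450 to 56942556, 116697095 to 117188116, 121377907 to 121580364 and 194848328 to 194988899. Together they took 106541, 119513 and 332745 FPKM in untreated and 100945, 39097 and 68473 in manipulated libraries, or 4.36% to 34.4% of all FPKM in a library. Untreated 3 was far above the rest, manipulated 5 and 6 were the lowest, and manipulated 4 lay near untreated 1.

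The arrays split differently in each library. The first block, named SNORD115, had 53903, 29466 and 48704 FPKM against 27368, 274 and 10803, with no overlap between groups. The second block had 131825 FPKM in untreated 3 and at most 499 in any other library. The third, with both names, had 52606, 20700 and 32141 against 10325, 2727 and 8070, again without overlap. With joined rows kept, 23.2% of all tested genes lay apart as lower. The fourth, named SNORD116, had 1.07 FPKM in untreated 1 and 68932 and 120075 in untreated 2 and 3, against 63216, 35598 and 49481. In untreated 1 a single row named both SNORD115 and SNORD116 and held 52604 FPKM. Of the 10 to 22 rows above 0 in a library, 6 to 12 shared an identical value with another row.

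Of these places 3 had rows of their own and were tested. SNORD116 from 194848328 had a log2 fold change of 4.22 (SE 3.56), set by the near-zero value of untreated 1, and without that library it was -0.92. SNORD115 from 116697095 had -3.15 (SE 2.59), and without untreated 3 it was 0.25. SNORD116 from 194977168, at most 15.4 FPKM, had -0.70 (SE 1.20). None passed the adjusted p (0.438 to 0.694). The joined rows of the first block (log2 fold change -3.29, SE 1.43) and the third (-2.42, SE 0.53) did not pass either, at adjusted p 0.333 and 0.217. Rows naming SNORD115 summed to 106537, 47090 and 195756 FPKM against 28054, 2616 and 10926, so the groups did not overlap. Over all tested genes 23% lay apart in this direction. Rows naming SNORD116 summed to 52609, 72423 and 136989 against 72892, 36480 and 57547, and overlapped. The row of 52604 FPKM in untreated 1 names both and is counted in both sums, so it makes up nearly all of that library's SNORD116 sum. Which copies a fragment came from was not resolved.

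**Figure D4:**
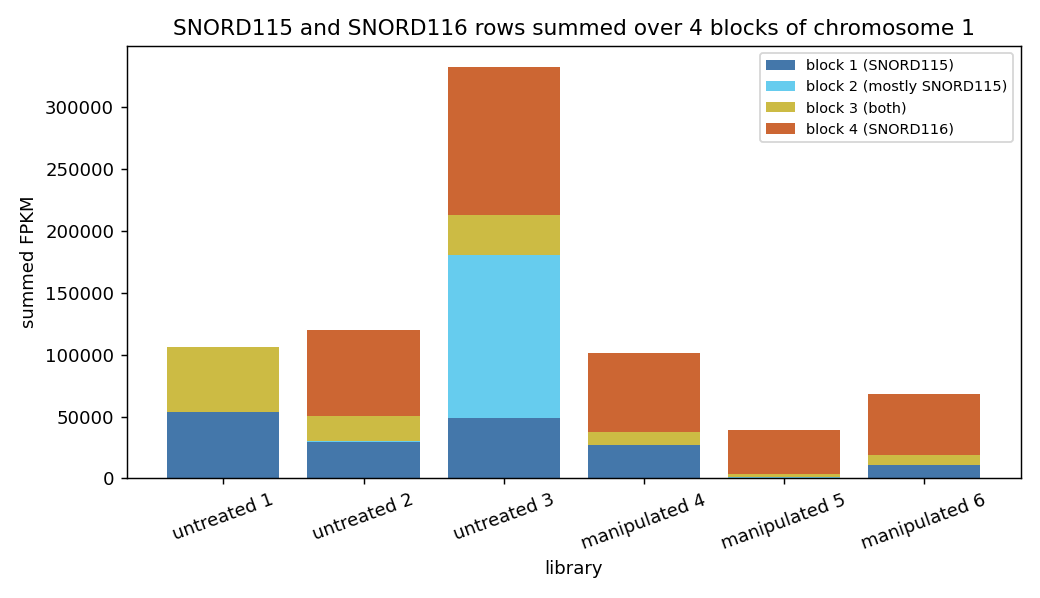
Summed FPKM of rows naming SNORD115 or SNORD116 in each library, stacked by the 4 blocks of chromosome 1 in order of position. Untreated 3 reaches 332745 FPKM through block 2, which is almost empty elsewhere, and block 4 is almost empty in untreated 1.

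The imprinted genes examined lay near different blocks of chromosome 1, and none near the first. Ube3a (116587815 to 116691638) lay just before the second block and Ndn (122981755 to 122983351) after the third. The row of Snrpn and Snurf (195068911 to 195096694) lay after the fourth. Ube3a, the ubiquitin ligase lost in Angelman syndrome, had 52.9, 23.5 and 15.2 FPKM against 13.3, 9.78 and 14.4 (log2 fold change -1.05, SE 0.43, adjusted p = 0.334). The row of Snrpn and Snurf, at the head of the imprinted transcript, had 382, 115 and 221 against 111, 112 and 68.8. Ndn, an imprinted neuronal gene nearby, had 27.5, 22.7 and 29.96 against 28.3, 24.99 and 19.1. Groups did not overlap in Ube3a or in the Snrpn row and did overlap in Ndn. Over all tested genes 23% lay apart as lower. SNORD115 is read against the strand of Ube3a, and these tables carry no strand.

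A containing gene was found by position for 52 of the 89 snoRNA genes, in 45 different genes, of which 12 encode ribosomal proteins. For 33 tested snoRNA genes the containing gene was tested too. The containing genes, 29 in all, each had a log2 fold change below 0, with a median of -0.47. None passed the adjusted p (limma), and 5 were lower at an unadjusted p under 0.05, where 13.1% of all tested genes were. Over all tested genes 9508 of 11081 lay below 0. With median-ratio scaling over all genes, 12 of the 29 containing genes lay above 0 and 17 below, with a median of -0.10. Of the 33 snoRNA genes 29 lay above 0, with a median of 0.68, and 31 lay above the gene that contains them. All 19 of those above 0 in all 6 libraries lay above it. Rps3, the host of SNORD15, had -0.70 (SE 0.37) and Rpl32, the host of Snora7a, had -0.56 (SE 0.37). The 2 exceptions were SNORA70 copies inside Slc25a16 and Spock3, each on 3 or fewer fragments in any library. Values for snoRNA and host come from the same libraries, and short and long genes are scaled differently in FPKM.

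**Figure D5:**
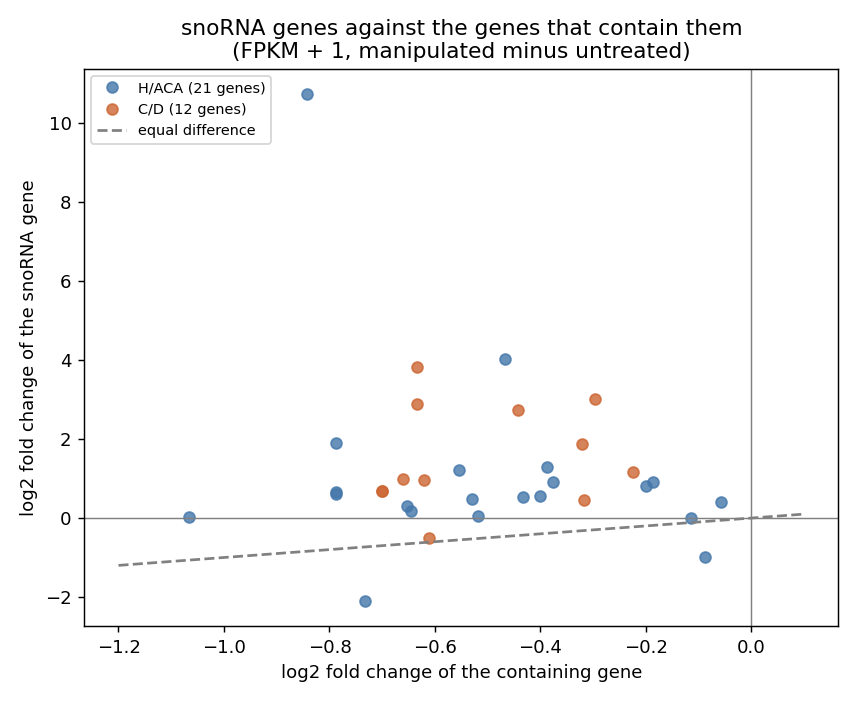
Log2 fold change (FPKM + 1, manipulated minus untreated) of 33 tested snoRNA genes against that of the gene that contains each, with the dashed line at equal difference. The containing genes all lie below 0, and 31 of the 33 points lie above the line.

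Host genes of snoRNAs are known for starting transcription in a run of pyrimidines, the mark of mRNAs whose translation follows growth signals. Letters around the RefSeq transcript start (15 bases before to 15 after, strand of the gene) are shown for 6 containing genes, because snoRNA and mRNA share this start. The 6 were chosen after values were seen, to show windows with and without a run of C or T. A run may lie anywhere in the window, and in Rps3 and Rpl23 it ends before the start. The coordinates are on GRCr8 and do not match the Rnor_6.0 positions above. Capitals mark the longest run of C or T where it reaches 8 bases.
Rps3, host of SNORD15, chr1:163195762-163195791, minus strand: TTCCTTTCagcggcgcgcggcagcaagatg
Rpl23, host of Snora21, chr10:83272170-83272199, minus strand: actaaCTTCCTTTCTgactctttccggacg
Rps2, host of Snora64, chr10:14251833-14251862, plus strand: CCTCTTCTTTTTCTTCgggaaaacacgtga
Rpl4, host of SNORD16, chr8:73566462-73566491, plus strand: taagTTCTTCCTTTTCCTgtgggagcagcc
Eif4a2, host of SNORA63, chr11:91275309-91275338, minus strand: gtcttttcagtcgggcgctgagtgggtttt
Hspa8, host of SNORD14, chr8:50080499-50080528, plus strand: cgggcggaaaccggtctcattgaacgcgga

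Of the 45 containing genes 32 had an entry, and 12 of them (37.5%) held a run of at least 8 bases that are each C or T on the gene's strand within this window. Among the 9 ribosomal protein hosts with an entry, 6 held it. The share was 31.5% over all 248 entries listed as Rpl or Rps and 11.4% over all 27457 genes of the table. Whether each of the 248 encodes a ribosomal protein was not checked. Eif4a2 and Hspa8 hold no run of that length in these letters. A match describes letters only, and a run counted wherever it lay in the window, at the start or not.

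Genes for the proteins that build snoRNPs and the factors that trim them mostly lay below 0, as did most genes. Of 46 tested genes in 8 pathway lists, 43 lay below 0, with a median log2 fold change of -0.41 beside -0.36 over all genes. With median-ratio scaling 31 lay below 0 and 15 above. None passed the adjusted p (limma), and 9 had an unadjusted p under 0.05, all lower, where 13.1% of all tested genes were lower at that p. Nop58, a C/D core protein, had 7.16, 5.19 and 7.55 FPKM against 3.76, 4.83 and 2.86 (log2 fold change -0.67, SE 0.24, adjusted p = 0.334). Its groups did not overlap, where 23% of all tested genes lay apart as lower. Fibrillarin (Fbl) and Nop56 shared rows with other genes, at 10.4, 10.6 and 10.01 against 5.71, 10.7 and 7.20 for Fbl and 11.1, 8.20 and 11.5 against 7.498, 6.82 and 4.65 for Nop56.

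The H/ACA core proteins were tested in full. Dkc1, the pseudouridine synthase dyskerin, had 9.76, 5.69 and 9.19 FPKM against 5.91, 6.56 and 4.86 (log2 fold change -0.42, SE 0.26). Nop10 had -0.39 (SE 0.29), Nhp2 -0.53 (SE 0.31) and Gar1 -0.02 (SE 0.24). The adjusted p of these 4 lay between 0.350 and 0.950, and their groups overlapped. In the remaining lists, 14 of 14 tested members of the U3 processome, 8 of 8 of trimming and decay, 7 of 9 of assembly and transport, 6 of 6 of the nucleolus and 2 of 3 of the Cajal body lay below 0. Of 21 non-coding hosts on the list, Snhg11 was the one with a row by name, at 39.0, 22.3 and 53.0 FPKM against 28.3, 11.1 and 15.3 (log2 fold change -1.04, SE 0.43). Gas5 had no row by name.

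Other short RNAs were set beside the snoRNAs because short genes share the FPKM scale described above. The 669 other tested genes with a span under 300 bases had a median log2 fold change of -0.09, with 67 apart as higher and 35 as lower. Within them classes differed. Copies of 7SK, an RNA that restrains transcription elongation, had a median of 0.68 over 36 genes, with 17 (47.2%) apart as higher. U5 copies had 1.02 over 9 genes and U4 copies 0.79 over 19, while U6 copies had -0.63 over 96 and microRNA genes -1.0003 over 39. The signs of these medians held under both other scalings. A 7SK copy on chromosome 8 had 23500, 39099 and 18663 FPKM against 33375, 43298 and 40606, so untreated 2 again lay with the manipulated libraries. Copies share reads, so these counts are not independent.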

How the data were processed

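RNA libraries came from 6 rats, 3 untreated and 3 manipulated. Per the submitters' processing notes, the authors used STAR 2.7.3a, Cufflinks without a stated version and the rat build Rnor_6.0 to make FPKM for each gene. Per the file headers, the deposited tables pair each FPKM with the bounds of its interval. For strand, RNA selection and read totals the sources used here give nothing. Rows were matched by symbol and place, and rows of a symbol at a place were summed. A place was tested alone where it had its own row in all 6 libraries and a mean of at least 1 FPKM. Log2(FPKM + 1) was tested in all 11081 such genes, two-sided, by limma 3.58.1 (R 4.3.3) with a variance trend and Benjamini-Hochberg adjustment. In 3 simulated sets of 11081 genes the test recovered 72.7% of log2 changes of 2 and 11.7% of those of 1, with a mean of 2.33 false calls. Start positions count from 0 in the tables and are printed counted from 1.

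Fragment numbers were implied from each interval, taken as 2 SDs of a Poisson number on each side. A containing gene is the smallest other named gene of at least 300 bases with rows over the snoRNA in at least 4 libraries, by position alone. Pathway and marker lists, and the snoRNA genes themselves, were chosen with earlier results of these data known. The genes named are those past the adjusted p, the 5 with the highest mean FPKM in each class, the 8 largest increases and the 8 largest decreases among those whose groups do not overlap, the families SNORD115, SNORD116, SNORD3, SNORD118, SNORD13, SNORA73 and SCARNA2 where found, and pathway genes past the adjusted p or else Fbl, Nop56, Nop58, Dkc1, Nop10, Nhp2, Gar1 and Gas5. Any other gene named was chosen after its values were seen. Alternatives covered pseudocount, filters, scaling, variance model, weights, joined rows and leaving out each library.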

Additional observations from a re-analysis of the deposited data

How the results depend on the processing

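No paired analysis was possible because the groups share no replicate number. Counts are followed in brackets by the share of all tested genes in that setting. As deposited, 1 snoRNA gene passed the adjusted p by limma (0.289%), 13 lay apart as higher (1.4%) and 1 as lower (23%). Median log2 fold changes were 0.80 for all, 0.57 for H/ACA and 0.99 for C/D. The number past the adjusted p was 3 with a pseudocount of 0.01 (0.352%), 2 with a filter at a mean of 5 FPKM (0.552%) and 2 with scaling over short genes (0.478%). It was 3 with a robust prior for the variance (0.587%), 11 with library weights (5.55%) and 2 with joined rows kept (0.284%). Among genes above 0 in all 6 libraries it was 7 (4.41%). Where genes at 0 throughout a group were left out it was 0 (0.139%), with 14 higher and 0 lower there at an unadjusted p under 0.05. It was 1 to 3 when a library was left out, for instance 1 without untreated 1 (0.343%) and 3 without untreated 2 (0.514%). The number apart as higher was 25 with median-ratio scaling (10.7%), 7 with scaling over short genes (0.668%) and 15 to 22 when a library was left out. For instance, it was 15 without untreated 1 (2.46%) and 22 without untreated 2 (2.09%). The number apart as lower was 0 with the filter at 5 (21.6%), 3 with scaling over short genes (53.0%) and 4 with joined rows (23.2%). It was 0 among genes above 0 in all 6 libraries (24.6%) and 0 where genes at 0 throughout a group were left out (23.4%). Without a library it was 1 to 2, for instance 2 without untreated 1 (24.7%) and 1 without untreated 2 (56.4%).

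The median over all snoRNA genes ran from 0.45 to 1.14. The H/ACA median was 1.03 with median-ratio scaling and 0.36 to 0.78 without a library. The C/D median was 1.90 with a pseudocount of 0.1, 2.45 with 0.01, 1.42 with median-ratio scaling, 1.45 with weights and 0.73 to 1.83 without a library. Pathway genes past the adjusted p numbered 2 with weights (5.55% of all genes), 1 among genes above 0 in all 6 libraries (4.41%) and 0 in all others. SnoRNA genes lay above their containing gene in 87.9% to 100% of pairs. For single genes, Scarna6 turned to -0.21 with scaling over short genes. SNORA73 from 150529715 turned to 0.21 with weights, and ran from -2.95 to 1.43 when a library was left out. SNORD116 from 194848328 ran from -0.92 to 6.99, SNORD116 from 194977168 from -2.04 to 0.062, and SNORD115 from 116697095 from -5.79 to 0.25. The causes were not tested, except that fewer genes or libraries enter some settings. FPKM without read totals limits every value, and for snoRNA genes of 61 to 80 bases a single fragment moves FPKM by 22.8.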
